A study of Rattus norvegicus with 33 samples.

Results

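The postnatal maturation of the rat prostate without added hormone was followed by setting 3 control prostates of postnatal day (PND) 100 against 4 control prostates of PND 30, as the sample titles name them. These 7 arrays are among 33 in the series, which was designed around neonatal exposure to estradiol benzoate (EB), an ester of estradiol, and adult implants of testosterone and estradiol. All animals were male Sprague-Dawley rats, and the ages are described in the series title as prepubertal and adult. The PND 100 controls received vehicle on PND 1, 3 and 5 and carried empty silastic implants from PND 90. The PND 30 controls received the same vehicle injections and were collected before the age of implantation, so the implant goes with age and the effects of the 2 cannot be told apart. The 3 controls of PND 145, vehicle-injected and with empty implants, and the EB-only animals, injected with EB at 2.5 mg/kg on the same days, with 4 arrays at PND 30 and 3 at PND 100, are used below for comparison. The EB-only animals of PND 100 carried empty implants as well. Each label gives whole prostate, whereas the series title names the dorsolateral prostate, so the lobes taken are not settled here. Animals of a group came from 3 to 4 litters, per the labels, so p-values here reflect variation among these few arrays.

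The rat prostate is a set of paired lobes whose branched ducts are lined by tall secretory luminal cells, resting on basal cells and a sleeve of smooth muscle and fibroblasts. Ducts branch under signals exchanged between stroma and epithelium soon after birth. The testicular androgen surge of puberty then drives a burst of epithelial growth and the onset of secretion, after which cell division in the intact adult gland is rare. The adult lobes differ in what they secrete: probasin, microseminoprotein and transglutaminase 4 mark the dorsolateral lobes, and the prostatein (C3) subunits and spermine-binding protein mark the ventral lobe.

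Each array carried 58717 gene spots, and on these 7 arrays 62.5% to 67.9% of them exceeded background clearly by the scanner software's call, with 0 spots saturated. Values are given as levels, the log2 of a probe's signal over the 75th percentile of its own array, so a level of 0 lies at that percentile and a difference of 1 is a factor of 2 in signal. Levels of different genes come from different probes and are not set against each other. Arrays correlated at 0.965 to 0.986 within the PND 100 controls, at 0.952 to 0.985 within the PND 30 controls and at 0.941 to 0.967 between ages. The labelled tissue carried its markers on all 7 arrays. Probasin (Pbsn) and the prostate homeobox factor Hoxb13 had levels of 5.64 to 5.82 and 4.06 to 4.36 at PND 100, and of 4.41 to 5.14 and 3.61 to 4.30 at PND 30.

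The arrays differed in products of the ventral lobe and of neighbouring tissues, and these differences did not follow age. The mean level of 8 ventral secretory products was 3.40, 1.42 and -0.32 on PND 100 arrays 1 to 3, and 1.34, 4.45, -0.08 and -0.64 on PND 30 arrays 1 to 4. Array 2 of PND 30 stood above all others in these products. The mean level of 8 seminal vesicle products was -2.91, -3.59 and 2.72 on the PND 100 arrays, and -2.02, -2.24, -0.82 and -4.01 on the PND 30 arrays. Array 3 of PND 100 was the highest in these products and also in adipocyte genes (-1.42, against -3.46 and -4.08 on the other PND 100 arrays and -5.09 to -3.24 at PND 30). Skeletal muscle genes ran the other way, from -4.42 on this array to 0.55 on array 2 of PND 100. Results below are given with and without array 2 of PND 30 and array 3 of PND 100 where leaving them out moves a count. Leaving arrays out also lowers the number of arrays, so a smaller count does not show the part of these tissues. That part was not tested.

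Of 23134 genes tested, 523 (2.26%) differed between the ages at an adjusted p under 0.05 in limma, 180 (0.778%) higher and 343 (1.48%) lower at PND 100. The changes were often large: 463 of the 523 reached a 2-fold ratio, and of the 301 that reached 4-fold 79 were higher and 222 lower. The median ratio of all genes was 0.03. Before adjustment 3214 of the 23134 genes had a p under 0.05 in limma, the share to set beside unadjusted counts of lists below. Of the genes that fell, 82 were not well above background on any PND 100 array, and of those that rose, 18 were not well above background on any PND 30 array. The fit shares its estimate of spread over all 10 groups of the series. With the spread of only these 7 arrays, 2219 genes passed, 996 (4.31%) higher and 1223 (5.29%) lower, and 502 of the 523 were among them. Without array 2 of PND 30 and array 3 of PND 100 together, 324 passed, of which 290 were among the 523.

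**Figure D1:**
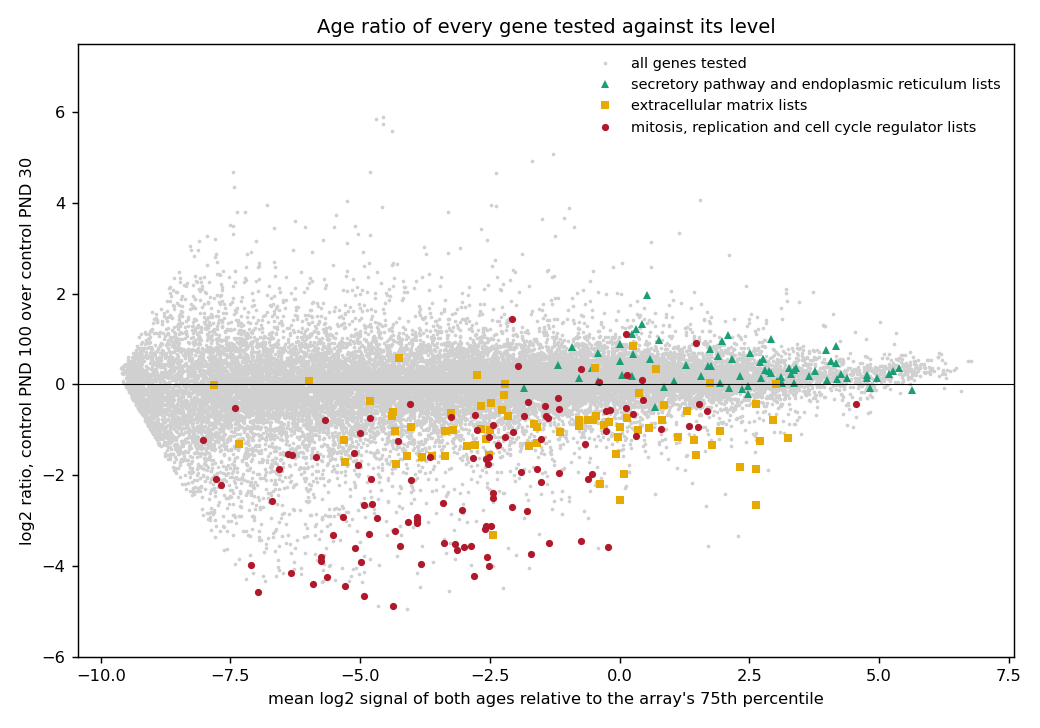
Each point is 1 gene; the horizontal axis is its mean log2 level over both ages and the vertical axis its log2 ratio of control PND 100 over control PND 30. Red points, genes of mitosis, replication and cell cycle regulation, lie mostly below 0, down to -4.88, as do most yellow points, genes of the extracellular matrix, down to -3.32, while most green points, genes of the secretory pathway and endoplasmic reticulum, lie slightly above 0.

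Transcripts of dividing cells were frequent among the falls. Of the 12 lowest ratios among called genes well above background on at least 1 array of both ages, all but Cthrc1 belong to genes of the cell division cycle. In the list of mitosis and kinetochore genes, which separate the chromosomes, 39 of 47 members fell and 0 rose, with a median log2 ratio of -2.99. The arrays of the 2 ages did not overlap, with PND 100 lower, for 41 of the 47, against 12.3% of all genes. The spindle checkpoint kinase Bub1 had levels of -4.67, -5.01 and -4.30 at PND 100, against -1.22, -1.40, -0.74 and -0.98 at PND 30. The anaphase activator Cdc20 had levels of -4.05, -4.70 and -4.52 at PND 100, against -2.12, -1.84, -1.10 and -1.54 at PND 30. For both genes all PND 100 arrays lay below all PND 30 arrays, by more than the spread within either age. Bub1 fell by 3.57 on the log2 scale (SE 0.45) and Cdc20 fell by 2.78 (SE 0.35), both at an adjusted p of 4.83e-05.

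Pimreg, a mitotic regulator, had the lowest ratio among called genes that were well above background on at least 1 array of both ages. It had levels of -6.84, -6.67 and -6.92 at PND 100, against -2.03, -2.35, -1.62 and -1.73 at PND 30, a 29.4-fold fall (log2 ratio -4.88 ± 0.63, SE, adjusted p 4.83e-05). Topoisomerase Top2a, which untangles sister DNA, had levels of -5.63, -5.13 and -3.99 at PND 100, against -0.84, -1.27, -0.25 and -0.39 at PND 30. Here array 3 of PND 100 stood nearest to the young arrays, and the fall was 18.7-fold (adjusted p 0.000294). Cenpf and the centromere proteins Cenpt and Cenpw, the kinesin Kif20b of cell abscission, the spindle-attachment proteins Ska1 and Spc25, the mitotic proteins Depdc1 and Cdca3 and the kinase Melk also fell, with fitted ratios of 15.8-fold to 25.4-fold. Depdc1, Kif20b, Ska1 and Melk were well above background on only 1 of 3 PND 100 arrays, so their fitted ratios rest mostly on dim values. Sgo1, the guardian of sister chromatid cohesion, and Aurkb, the kinase of the chromosomal passenger complex, were not well above background on any PND 100 array but were on all 4 PND 30 arrays, at least 8.75-fold and at least 11.8-fold lower. The 8 members that did not pass included Kif2c, a microtubule-depolymerising kinesin, with a ratio of 1.43, and Kif15 with 0.21, while the ratios of the other 6 ran from -2.63 to -0.42. Without the 2 arrays that stood apart, 38 members fell.

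In the DNA replication list 20 of 38 members fell and 0 rose, with a median log2 ratio of -1.10, smaller in size than that of the mitosis list. The helicase subunit Mcm6 had levels of -3.88, -4.07 and -3.14 at PND 100, against -1.08, -1.58, -0.98 and -1.13 at PND 30. All arrays of PND 100 lay below those of PND 30, and Mcm6 fell 5.68-fold (log2 ratio -2.51 ± 0.30, SE, adjusted p 2.91e-05). Dtl, the substrate receptor that clears licensing factors in S phase, fell by 3.12 (SE 0.51), the exonuclease Exo1 fell by 3.30 (SE 0.56) and thymidine kinase Tk1 by 2.69 (SE 0.48). The chromatin assembly subunit Chaf1a fell by 1.59 (SE 0.31). The helicase subunit Mcm4 (ratio -1.15) and the polymerase subunit Pola1 (-0.78) did not pass, and Gins4 of the same helicase complex had a positive ratio, 0.91, that did not pass. Fam111a, a protease that acts at replication forks, was not well above background at PND 100 and was at least 5.12-fold lower there.

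Among cell cycle regulators 13 of 28 fell and 0 rose, with a median of -1.16. Mki67, the proliferation antigen read by pathologists as Ki-67, had levels of -3.94, -3.92 and -2.88 at PND 100, against -0.04, -0.12, 0.45 and 0.35 at PND 30. The mitotic kinase Cdk1 had levels of -2.60, -3.10 and -1.71 at PND 100, against 0.93, 0.59, 1.29 and 1.10 at PND 30, and its partner Ccnb1 had -5.29, -5.60 and -4.53, against -1.85, -2.04, -1.11 and -1.57 at PND 30. None of these 3 genes overlapped between the ages, and the log2 ratios were -3.74 (SE 0.54), -3.45 (SE 0.52) and -3.50 (SE 0.54), with adjusted p of 0.000155 to 0.000257. E2f7, an atypical E2F repressor that peaks in S phase, was at least 16.8-fold lower at PND 100, where it was not well above background. The G1 cyclins Ccnd1 (-0.35 ± 0.23, SE) and Ccnd2 (-1.31 ± 0.47) and the kinases Cdk2 (-0.29) and Cdk4 (-0.56) did not pass, and Cdk6 had a ratio of 1.11 that did not pass.

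Cell cycle inhibitors had a median of 0.31 over 13 members, and 0 passed in limma in either direction (5 at an unadjusted p under 0.05). The antiproliferative factors Btg1 and Btg2 had ratios of 0.69 (SE 0.20, adjusted p 0.0645) and 1.15 (SE 0.36, adjusted p 0.095). Btg2 had levels of 0.79, 0.78 and 2.64 at PND 100, against 0.34, 0.20, 0.27 and 0.20 at PND 30, so array 3 of PND 100 stood above the rest. The cyclin-dependent kinase inhibitors Cdkn1a, Cdkn1b and Cdkn1c had ratios of 0.38, 0.31 and -1.06, and Rb1, the retinoblastoma protein, had 0.53.

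**Figure D2:**
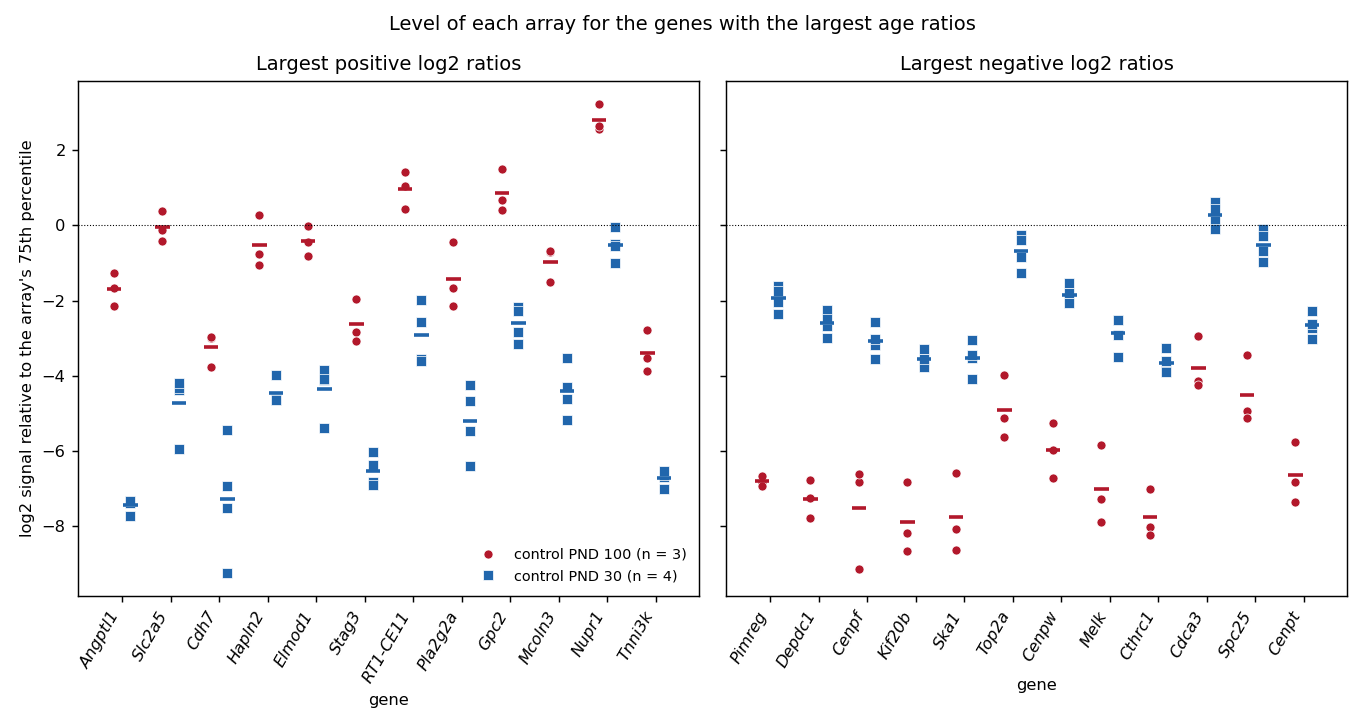
Levels (log2 signal relative to the array's 75th percentile) of the genes with the 12 highest and the 12 lowest log2 ratios. They were chosen among called genes with a symbol that were well above background on at least 1 array of both ages. Circles are the 3 PND 100 controls, squares the 4 PND 30 controls and bars their means. For each gene the 2 ages do not overlap, a condition of the choice, and the gap is widest for Angptl1 on the left and Pimreg on the right.

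The promoters of the 2 division lists, taken from RefSeq on build GRCr8 (250 bases before to 50 after the gene start), were searched on both strands for letters known from cell cycle promoters. These were TTTGAA, the core of the cell cycle homology region, CCAAT, the box bound by NF-Y, and TTTCCCGC and TTTGGCGC, versions of the E2F site. Each motif was counted on its own, so matches of different motifs could overlap. TTTGAA stood in 29 of 41 promoters of the mitosis list (70.7%), in 2 of 31 of the DNA replication list (6.45%), and in 13.2% of 13553 promoters of genes tested. One or both E2F versions stood in 0 of 41 promoters of the mitosis list, in 12 of 31 of the DNA replication list (38.7%) and in 2.43% of all. CCAAT stood in 68.3% and 71.0% of the 2 lists and in 37.7% of all. Among all genes that fell, 31.4% of 245 promoters held TTTGAA and 8.57% an E2F version, and among those that rose 7.41% and 1.85% of 108 did. The full palindromic androgen response element, with a spacer of any 3 bases, was in 0 promoters of the genes tested. It was in only 2 of all 27457 RefSeq promoters searched, so it is too rare in this window for its absence to be informative. These shares are descriptions of letters in a window, not of binding.

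The promoters of 3 mitotic genes with large falls, Cenpf (chr13:103760837-103761136, minus strand), Top2a (chr10:84473044-84473343, minus strand) and Depdc1 (chr2:251343031-251343330, plus strand), hold both TTTGAA and CCAAT. Capitals mark each match, and TTCAAA and ATTGG are the same motifs on the other strand.
Cenpf: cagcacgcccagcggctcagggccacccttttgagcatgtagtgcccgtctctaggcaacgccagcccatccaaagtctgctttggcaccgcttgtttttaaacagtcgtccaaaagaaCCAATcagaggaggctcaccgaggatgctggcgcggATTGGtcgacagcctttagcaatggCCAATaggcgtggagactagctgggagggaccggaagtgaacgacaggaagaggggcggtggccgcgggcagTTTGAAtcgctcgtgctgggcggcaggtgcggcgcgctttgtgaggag
Top2a: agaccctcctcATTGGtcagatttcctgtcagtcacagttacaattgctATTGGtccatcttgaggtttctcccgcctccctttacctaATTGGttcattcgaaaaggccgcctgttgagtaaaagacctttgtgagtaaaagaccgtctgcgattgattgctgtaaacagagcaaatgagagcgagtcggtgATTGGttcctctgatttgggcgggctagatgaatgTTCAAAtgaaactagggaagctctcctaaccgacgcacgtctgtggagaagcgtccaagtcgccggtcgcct
Depdc1: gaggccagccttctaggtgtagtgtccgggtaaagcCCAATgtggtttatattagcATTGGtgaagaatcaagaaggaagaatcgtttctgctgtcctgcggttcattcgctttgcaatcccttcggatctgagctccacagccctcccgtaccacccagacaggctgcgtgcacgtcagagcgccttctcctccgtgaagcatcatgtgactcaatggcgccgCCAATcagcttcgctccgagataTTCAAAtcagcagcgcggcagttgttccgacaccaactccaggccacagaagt
Cenpf held 1 TTTGAA and 3 CCAAT matches, Top2a 1 and 4, and Depdc1 1 and 3.

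The promoters of 3 replication genes that fell, Mcm6 (chr13:42404303-42404602, minus strand), Mcm5 (chr19:13488563-13488862, plus strand) and Dtl (chr13:105685872-105686171, minus strand), show CCAAT with an E2F version and no TTTGAA. Capitals mark each match, and GCGCCAAA is TTTGGCGC on the other strand.
Mcm6: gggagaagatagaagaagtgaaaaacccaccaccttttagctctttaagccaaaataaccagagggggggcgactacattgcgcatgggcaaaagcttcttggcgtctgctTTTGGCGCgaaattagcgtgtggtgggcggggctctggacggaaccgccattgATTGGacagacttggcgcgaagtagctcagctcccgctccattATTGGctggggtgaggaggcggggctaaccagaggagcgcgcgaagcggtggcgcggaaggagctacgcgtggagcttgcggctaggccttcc
Mcm5: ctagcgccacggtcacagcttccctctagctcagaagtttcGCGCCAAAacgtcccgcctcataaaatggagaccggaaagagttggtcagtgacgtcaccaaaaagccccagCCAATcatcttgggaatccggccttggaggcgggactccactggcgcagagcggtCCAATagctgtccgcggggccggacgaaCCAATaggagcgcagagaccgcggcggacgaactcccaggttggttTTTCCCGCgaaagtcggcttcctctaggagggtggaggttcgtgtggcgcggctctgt
Dtl: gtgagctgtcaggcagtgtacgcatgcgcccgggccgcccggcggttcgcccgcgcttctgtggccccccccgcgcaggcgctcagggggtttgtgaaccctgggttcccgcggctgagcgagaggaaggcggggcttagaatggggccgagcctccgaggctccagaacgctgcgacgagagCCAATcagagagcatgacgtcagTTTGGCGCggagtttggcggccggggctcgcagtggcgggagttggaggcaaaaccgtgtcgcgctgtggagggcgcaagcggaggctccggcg
Mcm6 held 2 CCAAT and 1 TTTGGCGC match, Mcm5 held 3 CCAAT and 1 match of each E2F version, and Dtl held 1 CCAAT and 1 TTTGGCGC match.

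Chromatin and growth genes of the young organ were called in smaller numbers than those of the division lists. The counts of members that fell stand beside 1.48% of all genes. In the list of DNA methylation and repressive chromatin 2 of 23 members fell, Uhrf1, which guides maintenance methylation at replication forks, and Tet1, which oxidises methylcytosine. Uhrf1 was not well above background at PND 100 and was at least 2.58-fold lower (adjusted p 0.00012), and Tet1 had levels of -6.87, -6.65 and -7.87 at PND 100, against -5.15, -4.67, -4.87 and -4.58 at PND 30 (adjusted p 0.00338). The de novo methyltransferase Dnmt3a had a ratio of -0.74 ± 0.21 (SE) and the helicase Hells one of -2.85 ± 0.78, the second above background on only 1 PND 100 array, with adjusted p of 0.0589 and 0.0513. Of 16 imprinted growth genes 1 fell, necdin (Ndn), a growth suppressor best known in neurons. Ndn had levels of -2.41, -2.31 and -2.05 at PND 100, against -0.02, 0.82, -0.32 and 0.77 at PND 30, and fell by 2.57 (SE 0.56, adjusted p 0.00863). The fetal growth factor Igf2 and the noncoding RNA Meg3 had ratios of -1.38 ± 0.51 and -2.24 ± 0.82 that did not pass. Of 9 fetal growth regulators the oncogenic transcription factor Mycn fell, at least 2.38-fold, while Sox4 (-1.13) and the histone methyltransferase Ezh2 (-1.16) did not pass.

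A minority of extracellular matrix genes passed the test, and those that did were lower at PND 100, as were 1.48% of all genes. Of 28 fibrillar collagens and assembly proteins 5 fell and 0 rose (median -1.17), of 29 matricellular and elastic proteins 5 fell and 0 rose (median -0.78), and of 18 basement membrane proteins 3 fell and 0 rose (median -0.97). Collagen III (Col3a1), the pliable fibrillar collagen of growing tissue, had levels of 1.31, 1.73 and 0.88 at PND 100, against 4.10, 3.84, 3.87 and 4.05 at PND 30. Periostin (Postn), a matricellular protein of remodelling stroma, had levels of -4.09, -4.08 and -4.11 at PND 100, against -0.57, -0.98, -0.77 and -0.79 at PND 30. The ages lay far apart for both genes, and the spread within the adult arrays was small for Postn. Col3a1 fell by 2.66 (SE 0.49, adjusted p 0.00166) and Postn by 3.32 (SE 0.54, adjusted p 0.000426).

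Collagen I (Col1a1) fell by 1.87 (SE 0.42), collagen V (Col5a1 and Col5a2), which sets fibril diameter, had ratios of -2.20 and -2.54, and lysyl hydroxylase Plod1 fell by 0.83 (SE 0.16). Sparc, a collagen-binding matricellular protein, had levels of 1.19, 1.76 and 1.29 at PND 100, against 3.36, 3.21, 3.08 and 3.32 at PND 30, and fell by 1.83 (SE 0.30). Elastin (Eln) fell by 1.97 (SE 0.53), with array 2 of PND 30 at -0.02 and the other PND 30 arrays at 1.31 to 1.60. The microfibril proteins Mfap2 and Mfap4 fell by 1.75 (SE 0.46) and 1.33 (SE 0.31), and within slide 3, which held array 2 of PND 30, the ratio of Mfap4 was 0.03. In the basement membrane the laminin chain Lama5, collagen IV (Col4a2) and nidogen 1 (Nid1) fell by 1.35, 1.57 and 1.53. The collagen-cutting protease Mmp2 (-1.11 ± 0.37) did not pass, while Adam12, a membrane protease of growing mesenchyme, fell by 2.37 (SE 0.64), as the only one of 22 matrix turnover genes. Cthrc1, a secreted protein of collagen-producing fibroblasts, also fell, with levels of -8.03, -8.23 and -7.01 at PND 100, against -3.62, -3.86, -3.26 and -3.91 at PND 30. It was well above background on 1 of 3 PND 100 arrays, so its fitted 17.1-fold ratio rests mostly on dim values. In bulk tissue, fewer cells of a type and less RNA per cell cannot be told apart, here and in the lists below. Without the 2 arrays that stood apart the falls numbered 3, 3 and 1 in the 3 matrix lists. With the spread of the 7 arrays alone they numbered 16, 12 and 5, against 5.29% of all genes.

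The mean levels of the smooth muscle and nerve lists were lower on every PND 100 array than on every PND 30 array, and no member passed in the fit of all groups. For 23 smooth muscle genes the mean level was -0.36, 0.03 and -0.11 at PND 100, against 0.28, 0.39, 0.37 and 0.53 at PND 30, and 14 members did not overlap, with PND 100 lower (12.3% of all genes). In limma 0 members passed (10 at an unadjusted p under 0.05, all lower), and 9 passed with the spread of the 7 arrays alone. In that fit 4.31% of all genes were higher and 5.29% lower. Smooth muscle actin Acta2 had levels of -0.45, 0.09 and -0.41 at PND 100, against 1.08, 1.81, 1.10 and 1.35 at PND 30 (ratio -1.59 ± 0.45, SE, adjusted p 0.0587), and the actin-binding protein Tagln had a ratio of -1.07 ± 0.33 (adjusted p 0.0977). For 28 nerve and ganglion genes the mean level was -5.76, -5.11 and -3.74 at PND 100, against -3.12, -1.10, -3.34 and -1.78 at PND 30, and the median ratio was -2.49. Levels differed widely between arrays of 1 age, and 27 of 28 ratios were negative. In limma 0 members passed (19 at an unadjusted p under 0.05, all lower). With the spread of the 7 arrays alone 12 passed, all lower, against 5.29% of all genes. Peripherin (Prph), an intermediate filament of peripheral neurons, had levels of -3.02, -2.41 and -0.78 at PND 100, against 0.17, 2.09, -0.16 and 1.35 at PND 30 (ratio -2.93 ± 0.95, adjusted p 0.115). Sox10, the glial transcription factor, had a ratio of -1.93 ± 0.61 and Ret, a receptor of neurotrophic ligands, one of -1.41 ± 0.42. Ly6h, a surface protein with brain expression, was at least 17.9-fold lower at PND 100, where it was not well above background; its probe may bind related Ly6 transcripts.

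Other cell types showed few calls, as did all genes (2.26%). Of 26 endothelial genes and of 17 skeletal muscle genes 0 passed in limma (4 and 0 at an unadjusted p under 0.05), with medians of -0.34 and 0.84. Among all genes 3214 of 23134 had an unadjusted p under 0.05. The mean level of the endothelial list was also lower on every PND 100 array (-2.827 to -2.41) than on every PND 30 array (-2.338 to -2.275). Of its 26 ratios 21 were negative, and 8 members did not overlap, with PND 100 lower (12.3% of all genes). The angiogenic factor Vegfa had a ratio of 0.72 ± 0.27 and its vessel partner Angpt2 one of -1.05 ± 0.50. Adipocyte genes had a median of 1.09 over 16 members, 0 passing (3 at an unadjusted p under 0.05), and the median was 0.39 without the 2 arrays that stood apart. Leptin (Lep) had levels of -4.19, -6.29 and -0.35 at PND 100, against -7.53, -6.22, -6.08 and -9.50 at PND 30, so the age groups overlapped and array 3 of PND 100 was far above the rest. Spermatid genes (median 0.84 of 18) and urothelial and epididymal genes (median 0.01 of 11) had 0 calls (0 and 1 at an unadjusted p under 0.05).

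**Figure D3:**
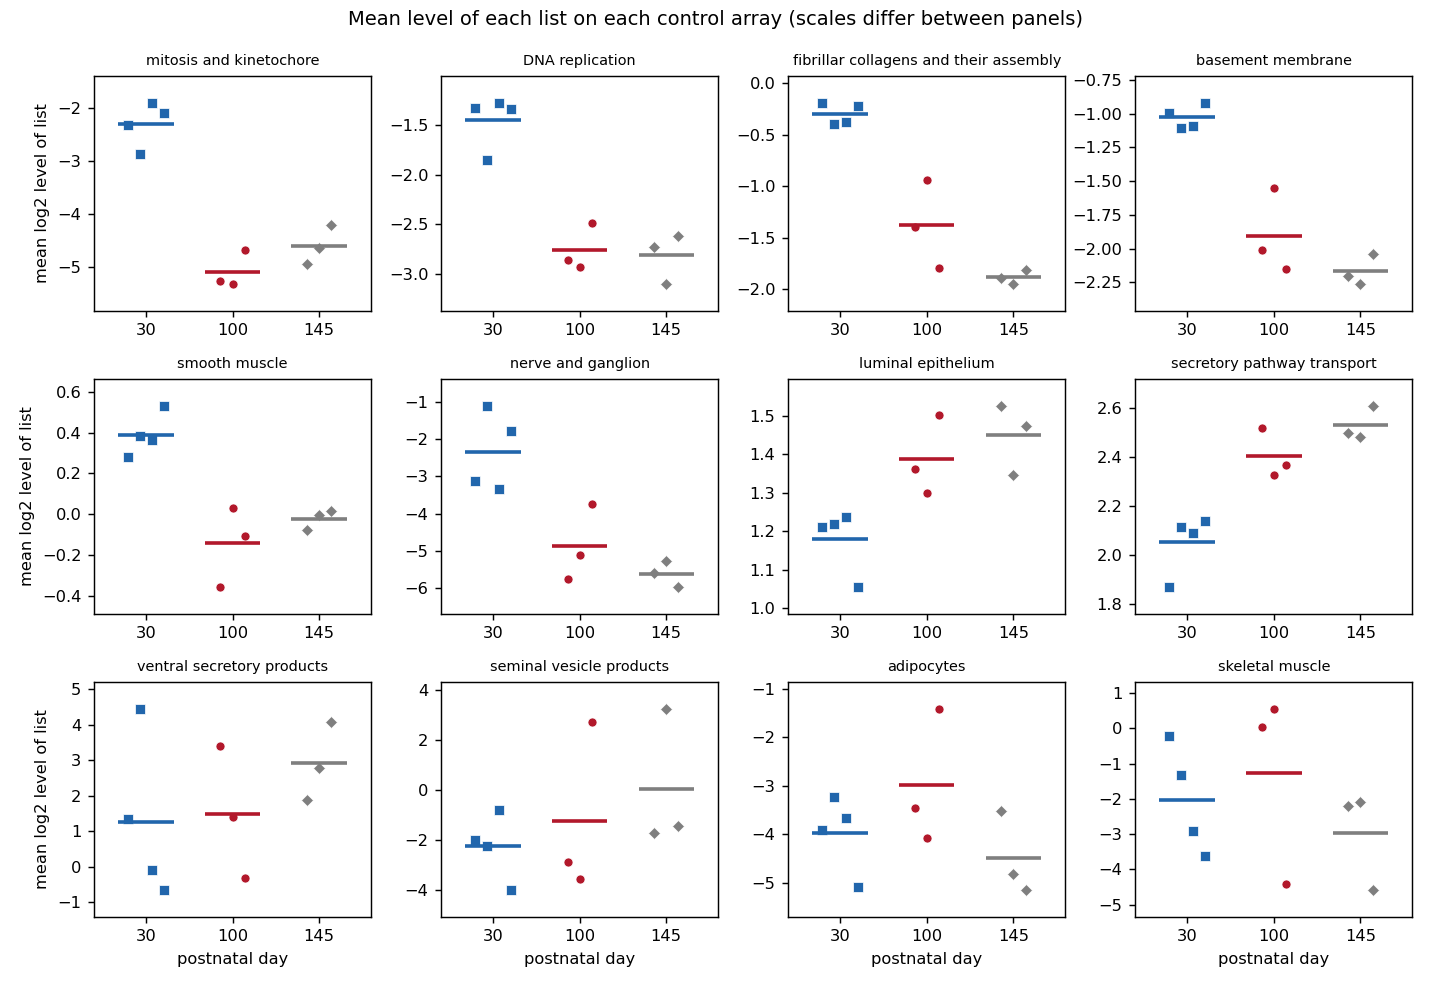
Mean level of 12 gene lists (log2 signal relative to the array's 75th percentile) on each control array, with postnatal day on the horizontal axis, points for arrays and bars for group means. Mitosis and replication lie between -5.31 and -2.49 at PND 100 and between -2.85 and -1.27 at PND 30, while ventral and seminal vesicle products scatter within each age.

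Identity genes of the epithelium passed rarely in the fit of all groups, as did all genes (2.26%). Of 29 luminal genes 0 passed in limma (3 at an unadjusted p under 0.05). With the spread of the 7 arrays alone 4 were higher and 1 lower, against 4.31% and 5.29% of all genes. The luminal list had a median of 0.26. Its mean level was 1.36, 1.30 and 1.50 on the PND 100 arrays, against 1.21, 1.22, 1.24 and 1.06 on the PND 30 arrays. Keratin 18 (Krt18), a luminal keratin, had levels of 5.75, 5.63 and 5.62 at PND 100, against 4.95, 5.14, 5.10 and 5.16 at PND 30 (ratio 0.58 ± 0.36, adjusted p 0.517, or 0.012 with the spread of the 7 arrays alone). The tight junction protein Cldn10 had levels of -5.97, -5.81 and -5.00 at PND 100, against -3.36, -2.20, -3.19 and -2.93 at PND 30. Its ages lay apart, and its ratio of -2.67 ± 0.73 did not pass (adjusted p 0.0501, or 0.00499 with the spread of the 7 arrays alone). Of 16 basal and squamous genes 1 fell, the zinc finger repressor Snai2. Snai2 had levels of -5.33, -6.02 and -5.18 at PND 100, against -3.40, -3.94, -3.72 and -3.57 at PND 30, and fell by 1.85 (SE 0.40, adjusted p 0.00863). The basal keratins Krt5, Krt14 and Krt15 had ratios of -0.55, -0.92 and -1.09 that did not pass.

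The leading secretory products Pbsn, Msmb and Tgm4 were far above the 75th percentile of every array at PND 30. Of 19 dorsolateral products 0 passed in limma (1 at an unadjusted p under 0.05), with a median of 0.33. Probasin had levels of 5.76, 5.82 and 5.64 at PND 100, against 4.41, 5.14, 5.02 and 4.84 at PND 30, with no overlap. Its ratio of 0.89 ± 0.33 (SE) did not pass in the fit of all groups (limma, adjusted p 0.194). It passed with the spread of the 7 arrays alone (adjusted p 0.0235). Microseminoprotein (Msmb) had levels of 5.89, 5.81 and 5.31 at PND 100, against 5.08, 5.27, 5.44 and 5.31 at PND 30, and transglutaminase 4 (Tgm4), which clots semen, had 6.87, 6.84 and 6.09, against 5.88, 6.88, 6.17 and 6.18 at PND 30. Both overlapped between the ages, with ratios of 0.40 ± 0.25 and 0.32 ± 0.67. Neither passed with the spread of the 7 arrays alone (limma, adjusted p 0.175 and 0.535). None of the 3 probes was saturated on any array. Of 8 ventral products 0 passed (0 at an unadjusted p under 0.05), and their levels ran over a wide range within each age. Spermine-binding protein (Sbp) had levels of 4.60, 1.21 and -1.84 at PND 100, against 2.30, 6.44, 0.64 and 0.70 at PND 30. Of 8 seminal vesicle products 0 passed (1 at an unadjusted p under 0.05), and the median of 1.58 became -0.45 without the 2 arrays that stood apart.

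The machinery of secretion lay slightly higher in the adult. Of 42 genes of secretory pathway transport 40 had positive ratios, with a median of 0.32. The median of all genes was 0.03 in the same fit, and 0.14 with normexp background correction. Of the 42, 1 passed, Sec63, which helps nascent proteins into the endoplasmic reticulum. Sec63 had levels of 0.47, 0.49 and 0.40 at PND 100, against -0.69, -0.27, -0.45 and -0.32 at PND 30, and rose by 0.88 (SE 0.21, adjusted p 0.0175). The coat protein Sec31a (0.69 ± 0.20) and the secretory transcription factor Creb3l1 (1.32 ± 0.39) did not pass, at adjusted p of 0.0686 and 0.0769. Of 30 genes of endoplasmic reticulum folding and the unfolded protein response, Atf4 rose, a transcription factor translated under amino acid shortage and unfolded protein stress. Atf4 had levels of 4.81, 4.52 and 4.44 at PND 100, against 3.67, 3.71, 3.87 and 3.69 at PND 30 (0.85 ± 0.21, SE, adjusted p 0.0278). Xbp1, the factor that expands the secretory apparatus, had levels of 2.45, 2.33 and 2.56 at PND 100, against 1.30, 1.61, 1.39 and 1.68 at PND 30, and fell just short (0.95 ± 0.27, adjusted p 0.0547). With the spread of the 7 arrays alone 7 and 8 members of the 2 lists passed, all higher, against 4.31% of all genes, and without the 2 arrays that stood apart 0 did in the fit of all groups.

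Zinc and citrate handling, for which the prostate is known, held 1 called gene. The zinc importer Slc39a10 had levels of 2.40, 1.98 and 2.16 at PND 100, against -1.46, -1.18, -0.54 and -0.65 at PND 30. Its ages were separated by more than 2 units on every pair of arrays, and it rose by 3.14 (SE 0.68, adjusted p 0.00836). The remaining 29 members did not pass, among them the metal-binding protein Mt3 (2.86 ± 0.91) and the aspartate transporter Slc1a1 (1.48 ± 0.44). Peroxiredoxin 4 (Prdx4), an antioxidant enzyme of the endoplasmic reticulum, fell by 1.52 (SE 0.24, adjusted p 0.000347) as the only one of 36 glutathione and antioxidant genes to pass. It had levels of -0.91, -0.95 and -0.76 at PND 100, against 0.47, 0.84, 0.81 and 0.46 at PND 30, opposite in direction to Atf4 and Sec63. Polyamine synthesis (15 genes, median 0.07), cholesterol and fatty acid synthesis (30, -0.41), mitochondrial respiration (39, 0.11) and ribosome biogenesis (30, 0.06) had 0 calls in limma, with 1, 2, 1 and 2 at an unadjusted p under 0.05. The sterol enzyme Hmgcs1 had levels of 1.87, 1.71 and 2.00 at PND 100, against 3.19, 4.14, 3.04 and 3.02 at PND 30, with a ratio of -1.49 ± 0.54 (SE) that did not pass.

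**Figure D4:**
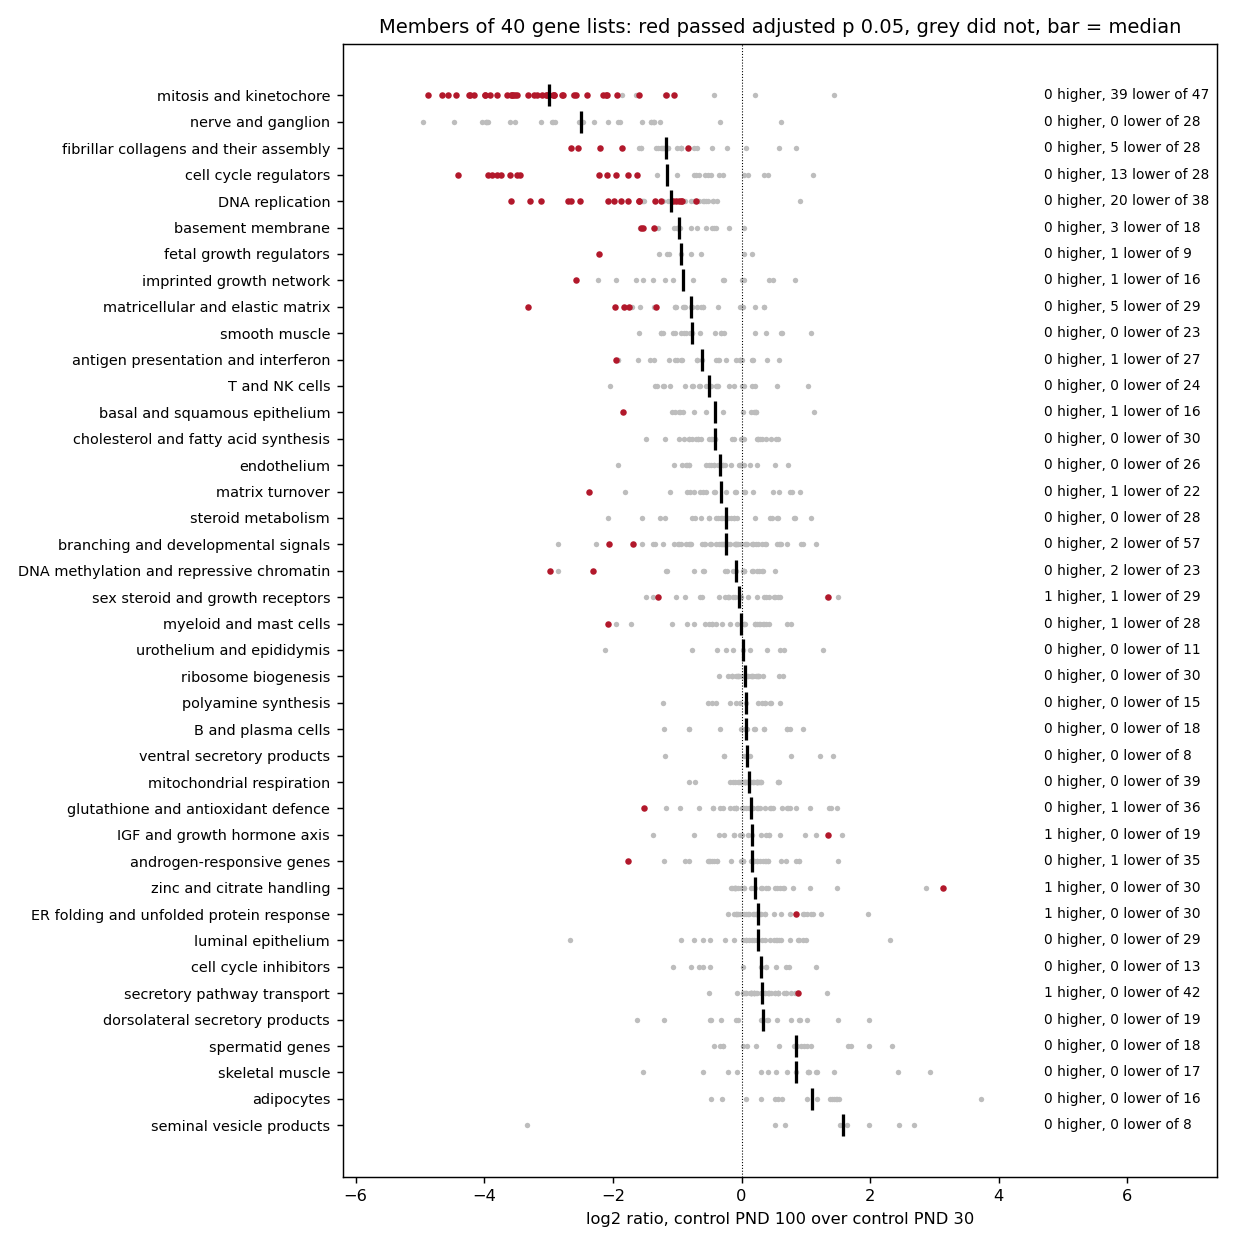
Each row is 1 of 40 gene lists and each point the log2 ratio of control PND 100 over control PND 30 of 1 member, red where the adjusted p was under 0.05; bars are medians and the counts of members that passed stand at the right. The row of mitosis and kinetochore has the lowest median, -2.99, and 39 red points, and the row of seminal vesicle products the highest, 1.58, with 0.

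Few hormone and growth receptors passed in the fit of all groups, and the receptor of insulin-like growth factor 1 was among them. Of 29 sex steroid and growth receptors and coactivators 1 rose and 1 fell, against 0.778% and 1.48% of all genes. The receptor Igf1r, which carries growth signals of IGF1, had levels of 2.57, 2.42 and 2.23 at PND 100, against 0.91, 0.96, 1.06 and 1.33 at PND 30, and rose by 1.34 (SE 0.34, adjusted p 0.0315). The retinoic acid receptor Rarb had levels of -1.93, -2.04 and -2.27 at PND 100, against -0.50, -1.53, -0.63 and -0.45 at PND 30, and fell by 1.30 (SE 0.33, adjusted p 0.0321). Estrogen receptor alpha (Esr1) had levels of -4.69, -4.90 and -4.75 at PND 100, against -6.47, -5.80, -5.87 and -6.28 at PND 30, which did not overlap, and its ratio of 1.33 ± 0.44 did not pass (adjusted p 0.128). Estrogen receptor beta (Esr2) had a ratio of -0.04 ± 0.64 and the progesterone receptor Pgr was not well above background on any PND 100 array (at least 1.70-fold lower, adjusted p 0.337). Without the 2 arrays that stood apart, 1 receptor gene rose and 0 fell.

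In the IGF and growth hormone axis Igf1r was the only one of 19 members to pass in the fit of all groups. The ligand Igf1 had levels of 1.98, 1.72 and 1.90 at PND 100, against 1.20, -0.41, 1.04 and 1.00 at PND 30, without overlap (1.16 ± 0.46, limma, adjusted p 0.227, or 0.0995 with the spread of the 7 arrays alone). Socs2, a feedback inhibitor of growth hormone signalling, had levels of -4.50, -4.25 and -4.81 at PND 100, against -6.56, -5.67, -6.23 and -5.86 at PND 30 (1.56 ± 0.44, limma, adjusted p 0.0591, or 0.018 with the spread of the 7 arrays alone). The binding proteins Igfbp2 and Igfbp3 had ratios of -0.12 ± 0.43 and 0.01 ± 0.70. A p that misses the threshold does not show that a level was the same at both ages.

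**Figure D5:**
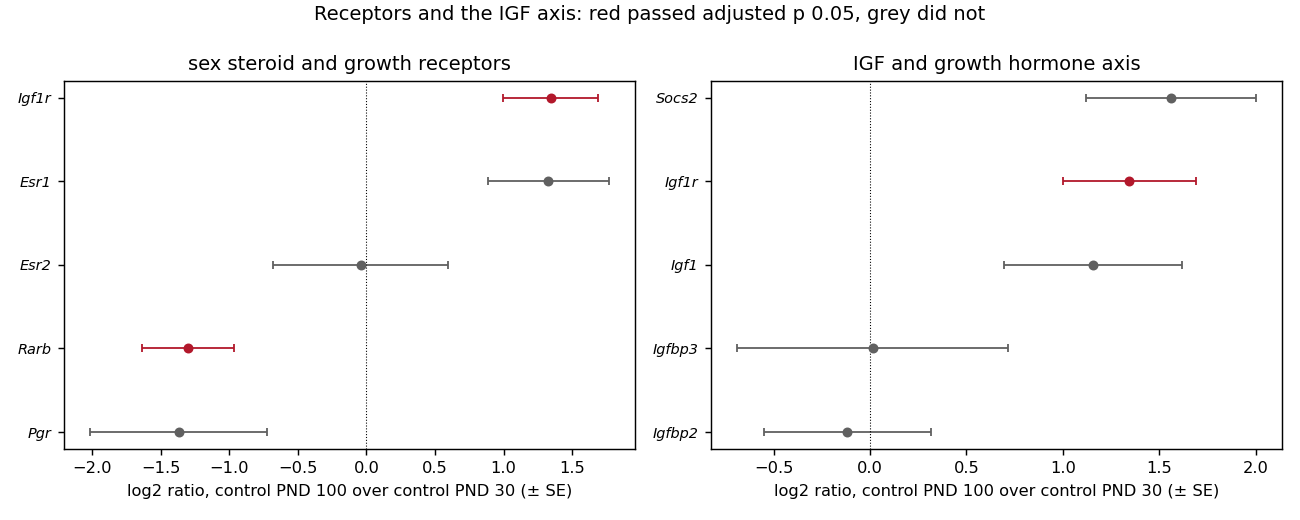
Log2 ratios of control PND 100 over control PND 30 with their standard errors from the fit, for the members named in the text, sex steroid and growth receptors on the left and the IGF and growth hormone axis on the right; red marks an adjusted p under 0.05. Igf1r (1.34) and Rarb (-1.30) are the red points, and Esr2 (-0.04) and Igfbp3 (0.01) lie near 0.

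Calls were rare among androgen-responsive genes and the enzymes that make or inactivate sex steroids, as they were among all genes (2.26%). Of 35 androgen-responsive genes 1 fell, Cenpn, a centromere protein (1.77, SE 0.34, adjusted p 0.00206), which also belongs with the dividing-cell genes, and the median was 0.16. Of 28 steroid metabolism genes 0 passed in limma (3 at an unadjusted p under 0.05), with a median of -0.25. Steroid sulfatase (Sts), which frees steroids from their sulfates, had a ratio of 1.08 ± 0.32, the estradiol-forming Hsd17b1 one of 0.81 ± 0.25 and the androgen-forming Cyp17a1 one of -2.07 ± 0.95. The 5-alpha reductases Srd5a1 and Srd5a2, which turn testosterone into dihydrotestosterone, had ratios of -0.21 ± 0.44 and -0.30 ± 0.27.

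Of 57 branching and developmental signals 2 fell and 0 rose, against 1.48% and 0.778% of all genes, with a median of -0.24. The ligand Wnt10a had levels of -5.02, -5.52 and -5.20 at PND 100, against -3.65, -3.48, -3.39 and -3.71 at PND 30, and fell by 1.69 (SE 0.44, adjusted p 0.0346). The secreted glycoprotein Nell2 was not well above background at PND 100 and was at least 3.23-fold lower (adjusted p 0.0388). Gdnf, a neurotrophic and ductal growth ligand of the Ret receptor, was not well above background at PND 100 either (at least 2.30-fold lower, adjusted p 0.0542). The Hedgehog transducer Smo (-1.54 ± 0.49) and the Hedgehog-binding protein Hhip (-1.37 ± 0.46) did not pass, nor did Fgf10 (0.07 ± 0.41), Bmp4 (-0.62 ± 0.40), Bmp7 (-0.49 ± 0.36) and Wnt5a (-1.23 ± 0.59), which direct branching from the stroma or the duct tips. Without the 2 arrays that stood apart 0 of the 57 passed in the fit of all groups. With the spread of the 7 arrays alone Gdnf, Smo, Bmp7, Wnt5a and Hhip passed as lower (limma, adjusted p 0.0143 to 0.0486). Fgf10 and Bmp4 did not pass there, and 5.29% of all genes were lower. The ages did not overlap for 14 members with PND 100 lower (12.3% of all genes) and for 5 with PND 100 higher (14.3%).

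Immune genes passed rarely, as did all genes (2.26%). Of 24 T and NK cell genes and 18 B and plasma cell genes 0 passed in limma (1 and 1 at an unadjusted p under 0.05), with medians of -0.51 and 0.08. The mast cell protease Cpa3 had levels of -3.11, -2.58 and -3.25 at PND 100, against -0.95, -0.63, -0.93 and -1.11 at PND 30, and fell by 2.07 (SE 0.51, adjusted p 0.0245), as 1 of 28 myeloid and mast cell genes. The mast cell chymase Cma1 had a ratio of -1.72 ± 0.50 and did not pass. The interferon-induced chemokine Cxcl9 fell by 1.96 (SE 0.52, adjusted p 0.038), as 1 of 27 antigen presentation and interferon genes. Its level at PND 30 ran from -3.94 to -2.58, with array 1 the highest, and at PND 100 from -5.87 to -5.12. Array 1 of PND 30 also stood apart in the mean level of this list, with 0.56 against -1.20, -1.96 and -1.89 on the other PND 30 arrays and -2.25, -1.35 and -1.69 at PND 100. In T and NK cell genes it had -4.34, against -5.67 to -5.18 on the other PND 30 arrays, and the part of this array in the fall of Cxcl9 was not tested. The MHC class I gene RT1-CE11 rose 14.8-fold, with levels of 0.44, 1.42 and 1.04 at PND 100, against -1.98, -2.56, -3.54 and -3.59 at PND 30. Its probe may bind other class I transcripts, whose alleles differ between animals, so this value is uncertain.

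The genes with the largest rises belonged to no single list. Angptl1, a secreted angiopoietin-like protein, had levels of -2.14, -1.67 and -1.27 at PND 100, against -7.37, -7.72, -7.34 and -7.31 at PND 30. This 53.4-fold rise was the highest ratio of a gene named here (5.74 ± 0.74, adjusted p 4.83e-05), and 2 of the 4 PND 30 arrays were well above background. The fructose transporter Slc2a5 had levels of -0.11, -0.41 and 0.39 at PND 100, against -5.95, -4.38, -4.32 and -4.19 at PND 30, a 25.3-fold rise (4.66 ± 0.63, adjusted p 7e-05). The stress-induced chromatin protein Nupr1 had levels of 2.56, 2.66 and 3.22 at PND 100, against -0.51, -0.04, -0.99 and -0.55 at PND 30 (3.33 ± 0.56). The sterol transporter subunit Abcg5 had levels of 0.29, 0.79 and 0.11 at PND 100, against -2.67, -3.26, -2.60 and -2.94 at PND 30 (3.27 ± 0.55, adjusted p 0.000542). In each of these genes every adult array lay above every young one.

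Hapln2, which links hyaluronan to proteoglycans, rose by 3.95 (SE 0.71), Elmod1, a GTPase-activating protein, by 3.93 (SE 0.68) and the cadherin Cdh7 by 4.04 (SE 0.92). Cdh7 was well above background on 2 of 4 PND 30 arrays and varied widely at PND 30, with levels of -9.23, -7.52, -6.93 and -5.44, below its levels of -3.76, -2.99 and -2.98 at PND 100. The heparan sulfate proteoglycan Gpc2 rose by 3.47 (SE 0.62), the lysosomal channel Mcoln3 by 3.43 (SE 0.63) and the secreted phospholipase Pla2g2a by 3.79 (SE 0.75). The meiotic cohesin subunit Stag3 and the kinase Tnni3k, which binds cardiac troponin I, rose by 3.91 and 3.32, both at an adjusted p of 0.0446. Otud7a, a deubiquitinase, the neuropeptide Spx (spexin) and the zinc finger gene Zfp790l2 were not well above background on any PND 30 array and were at least 7.69-fold, at least 4.97-fold and at least 3.98-fold higher at PND 100. Among the smallest p-values of genes that fell were Capn6, a calpain without protease activity that stabilises microtubules (-2.75 ± 0.30, adjusted p 7.65e-06), the spindle protein Ckap2l (at least 3.32-fold lower, adjusted p 8.24e-06) and stathmin (Stmn1), which destabilises microtubules (-2.69 ± 0.34). Stmn1 had levels of 0.12, 0.00 and 0.83 at PND 100, against 2.80, 2.98, 3.13 and 3.12 at PND 30.

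Slides 1, 2 and 3 each held 1 array of both ages, and slide 4 held an array of PND 30 only. Within slides 1 and 2 all 81 genes called and named by the rule kept the sign of their ratio, and within slide 3 80 of 81 did, Mfap4 being the exception. For genes chosen because their ages do not overlap, the sign within a slide is fixed by that choice.

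Between PND 145 and PND 100, 0 of 23134 genes passed in limma, with 567 at an unadjusted p under 0.05. This comparison shares the PND 100 arrays with the one above, so values are given side by side. The mean level of the mitosis list was -2.85 to -1.90 at PND 30, -5.31 to -4.68 at PND 100 and -4.94 to -4.20 at PND 145. Col3a1 had levels of 3.84 to 4.10 at PND 30, 0.88 to 1.73 at PND 100 and 0.06 to 0.66 at PND 145. Angptl1 had levels of -7.72 to -7.31 at PND 30, -2.14 to -1.27 at PND 100 and -1.57 to -0.53 at PND 145. Slc39a10 had levels of -1.46 to -0.54 at PND 30, 1.98 to 2.40 at PND 100 and 2.52 to 3.21 at PND 145. In these 4 measures the arrays of both adult ages lay on the same side of all PND 30 arrays. Zfp790l2 did otherwise, with levels of -9.82 to -8.55 at PND 30, -6.92 to -4.58 at PND 100 and -9.44 to -7.51 at PND 145, which overlap those of PND 30 (adjusted p 0.226 between PND 145 and PND 100). The spermatid list had mean levels of -7.47 to -6.96 at PND 100 and of -4.40, 1.18 and -5.70 on PND 145 arrays 1 to 3, array 2 being far above the others.

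In prostates exposed to EB as neonates 1268 genes (5.48%) were higher and 719 (3.11%) lower at PND 100 than at PND 30. The median ratio of the mitosis list was -2.09 in EB and -2.99 in control prostates, with 37 and 39 of 47 members lower, and that of the fibrillar collagens -0.32 in EB and -1.17 in control prostates. In limma 0 members of either list were called for a difference between the age changes (7 of 47 and 2 of 28 at an unadjusted p under 0.05). The difference between the 2 age changes was called for 5 genes (0.0216%), all higher in EB, with 1941 at an unadjusted p under 0.05. Of the 5 only Sh2d2a, an adaptor protein of T cells, has a gene symbol. It was not well above background on any control array of PND 100. It had levels of -5.38, -5.73 and -3.84 in EB prostates of PND 100, against -9.16, -8.68 and -7.68 in control prostates of PND 100. The difference of age changes had an adjusted p of 0.0275, and its size is not measured, since the control side is a floor. T and NK cell genes had median age changes of 2.24 in EB and -0.51 in control prostates, and B and plasma cell genes 2.30 in EB and 0.08 in control prostates, with 0 members called for the difference in limma (19 and 11 at an unadjusted p under 0.05). The EB arrays of PND 100 differed widely, with mean levels of -5.31, -3.39 and -2.26 for T and NK cell genes and of -4.83, -4.33 and -1.44 for B and plasma cell genes. Array 1 lay near the EB arrays of PND 30 in T and NK cell genes (-6.13 to -5.23 there), and array 3 was the highest in both lists. Angptl1 had levels of -3.59, -6.62 and -6.93 in EB prostates of PND 100, against -7.45 to -7.03 at PND 30 (age change 1.54), and its difference from the control age change was -4.19 ± 1.05 (adjusted p 0.234). Elmod1 had age changes of -0.19 in EB and 3.93 in control prostates, and the difference of -4.12 ± 0.96 did not pass either (adjusted p 0.18).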

How the data were processed

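Prostate RNA was labelled with Cy3 and hybridised to 1-colour Agilent 60-mer arrays, per the labels' protocols. The deposited spot intensity values were written by Agilent Feature Extraction, per the file headers, which name its protocol for 1-colour gene expression. From the processed signal, log2 of the signal minus log2 of each array's 75th percentile was computed, control spots and outlier spots left out and spots of a probe averaged. Probes that the software called well above background on 3 or more of the 33 arrays were kept. The brightest probe stood for each gene, which gave 23134 genes. Of 45598 probes, 24470 were named through RefSeq accessions, 6442 through symbols, 318 through synonyms, 4903 kept the file's name and 9465 had none. The deposited intensity table of the series held linear values scaled to a common 75th percentile, and correlated with the scanner values at 0.9999824 or above on each array.

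A linear model with 10 groups and all 33 arrays was fitted in limma 3.58.1 (R 4.3.3; lmFit, eBayes with trend and robust), with Benjamini-Hochberg adjustment over all genes at 0.05. Errors are standard errors of the fit. A group with no array well above background has a bound only: a ratio of "at least" sets the bright group's mean against a floor on each dim array, the dim probe's own value or, where higher, the dimmest value called above background. A gene measured on fewer arrays after outlier spots were left out, which affected 41 genes, was fitted on the rest. The same code was tested on simulated data. The number of arrays limits the precision.

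Members and gene lists were chosen with earlier results of these data known. Named genes are the 12 highest and 12 lowest ratios among called genes with a symbol, no overlap between ages and detection at both, the 3 largest bounds and 5 smallest p-values in each direction, up to 6 members of each list with the smallest p, any member of the receptor, IGF, imprinted, branching, steroid, secretory product and inhibitor lists, and the 4 highest differences from EB. Kif2c, Kif15, Mcm4, Mcm5, Pola1, Gins4, Ccnd1, Ccnd2, Cdk2, Cdk4, Cdk6 and Krt5 were added after their values were seen. Alternatives were another background correction, scaling, filters, probe rule, the deposited table, slide and replicate blocks, array weights, fewer groups and leaving out each array. Some measured genes are not reported here.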

Additional observations from a re-analysis of the deposited data

Results flagged for a closer look

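In groups of 4 arrays, 77 sets of PND 30 control values were searched for 1 array far from the other 3, and 7 were found; chance gives about 1 in 20. The fructose transporter Slc2a5 had a level of -5.95 on array 1, while the other PND 30 arrays had levels up to -4.19. Elmod1 had -5.37 on array 1, against -4.11 to -3.85 on the others. Angptl1 had -7.72 on array 2, against -7.37 to -7.31 on the others, a gap of small size at a signal near background. Hapln2 had -3.97 on array 3, against -4.65 to -4.61 on the others. The neuropeptide gene Spx, not well above background at PND 30, had -7.71 on array 2, against -10.02 to -9.63 on the others. The mean level of the DNA replication list was -1.85 on array 2, which was also the highest in ventral secretory products, against -1.33 to -1.27 on the others. The mean level of the luminal list was 1.06 on array 4, against 1.21 to 1.24 on the others. The age change of Sh2d2a was higher in EB than in control prostates by a test of the difference itself (limma, adjusted p 0.0275). The fitted difference of 4.81 is not a measured size, since 0 of 3 control PND 100 arrays were well above background.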

How the results depend on the processing

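The 523 genes called between control PND 100 and control PND 30 (180 higher, 343 lower) numbered 420 with normexp background correction, 527 with quantile scaling, 482 with no filter, 450 with a filter of 17 arrays, 507 in the deposited table, 499 with probes averaged, 528 with slide as a block and 463 with a 2-fold minimum. They numbered 4593 (2328 higher, 2265 lower) with array weights, 2219 (996, 1223) with only the groups compared, 2363 (1138, 1225) with only the control arrays, and 324 (79 higher) with 2 arrays left out together, an alternative chosen after seeing the data. Leaving out each array gave 293 to 439 genes, 68 to 142 higher and 210 to 297 lower; 293 were without PND 100 replicate 1 and 294 without replicate 2. Quantile scaling split the calls into 245 higher and 282 lower, and shifted the median of all genes to 0.12, normexp to 0.14. Calls for the difference between EB and control age changes, 5 in the report, numbered 1 with normexp, 3 with quantile scaling, 3 with the filter of 17 arrays, 19 with slide as a block, 1528 with array weights and 0 with only the groups compared (1980 at an unadjusted p under 0.05 in limma), and 0 to 424 leaving out each array: 424 without EB PND 100 replicate 1, 20 without EB PND 100 replicate 2, and 0 without control PND 30 replicate 1 or control PND 100 replicate 2. Calls between PND 145 and PND 100, 0 in the report, numbered 3 with array weights and 0 to 75 leaving out each array, with 75 without PND 145 replicate 3. The cause of these moves was not tested. Of 81 named genes called, 57 passed without the 2 arrays, 61 to 69 leaving out each array, and 66 to 81 under the other settings (73 of the 74 still tested with the filter of 17 arrays), and 0 changed sign in these fits. Mfap4 had a ratio of 0.031 within slide 3, against -1.33 in the fit. Replicate numbers did not pair the samples (correlations of deviations -0.066, -0.012 and -0.033), and the fit with the replicate block called 463 genes, 153 higher and 310 lower.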

Other observations

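Some called genes outside the lists share a known role; these groups were put together after their values were seen, so their counts carry no weight. Among them are genes of the amino acid response, picked because they were called, so they do not stand for that response as a whole. The transporter Slc38a2 had levels of 0.94, 0.76 and 0.62 at PND 100, against -0.49, -0.54, -0.19 and -0.17 at PND 30, and rose by 1.12 (SE 0.19, limma, adjusted p 0.000581). Atf5 rose by 0.83, the phosphatase subunit Ppp1r15a by 0.75, the glutathione-degrading Chac1 by 1.09, the folate enzymes Mthfd2 and Aldh1l2 by 1.49 and 1.61, and the secreted stress factor Gdf15 by 2.91. Ppp1r15a was highest on array 3 of PND 100, at 1.24, and Mthfd2 was lowest on array 2 of PND 30, at -0.13. The neutral amino acid transporter Slc7a8 rose by 1.39 (SE 0.25).

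Abcg8, the partner of the sterol transporter Abcg5, rose by 2.61 (SE 0.61), and the lipoprotein receptor Vldlr by 1.76 (SE 0.47). In retinoid handling, the retinoic acid-degrading enzyme Cyp26a1 rose by 2.13 (SE 0.47) and Rarb fell, as given above. The heparin-binding growth factors Mdk and Ptn had ratios of -1.48 (SE 0.33) and -1.71 (SE 0.46), and the stromal proteins Fap and Cdh11 had ratios of -2.07 (SE 0.32) and -1.76 (SE 0.45). Fap had levels of -5.60, -5.42 and -5.46 at PND 100, against -3.48, -3.69, -3.37 and -3.17 at PND 30, with no overlap. The growth cone and synapse genes Dcx, Slitrk5, Slitrk2, Lrrc4c and Nlgn1 were not well above background on any PND 100 array but were on all 4 PND 30 arrays, at least 7.48-fold, 6.79-fold, 2.55-fold, 4.53-fold and 2.23-fold lower at PND 100. The nerve and ganglion list had 0 calls in the same fit.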
